A study of Rattus norvegicus with 6 samples.

Results

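The cytochromes P450 of families 1 to 4, with the epoxide hydrolases Ephx1 and Ephx2, were followed in whole adrenal gland of the spontaneously hypertensive rat (SHR) and the Wistar-Kyoto rat (WKY). SHR is an inbred strain with high blood pressure, and WKY is the normotensive strain usually set beside it. Members were taken by annotated gene symbol alone (Cyp1 to Cyp4 followed by a letter, or Ephx1 or Ephx2). The rule itself uses no measured value, but it was chosen with earlier results of these data known. The steroid-making enzymes of families 11, 17 and 21 and the sterol enzyme Cyp51 were not members. The rule found 81 of the 8740 probe sets left after control probe sets were set aside, and these named 44 of the 5147 genes on the array (42 P450 genes and 2 epoxide hydrolases). Of the 81, 70 named 1 gene and 11 named several closely related genes jointly. The RefSeq gene table lists 71 protein-coding genes that match the same symbols, so 27 of them had no probe set named for them and were not measured here.

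The study measured total RNA on 6 Affymetrix RG-U34A arrays, 3 per strain. A probe set is a group of short oligonucleotides that together give 1 intensity for a transcript. The labels give the strain and the tissue of each sample, and the sources used here do not give age, sex, treatment or the number of animals per sample. Since no label says whether a strain's 3 samples were 3 animals, the p-values cover the spread among samples and that spread may be technical.

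P450 enzymes are haem proteins of the endoplasmic reticulum that insert oxygen into drugs, pollutants, steroids and fatty acids, with electrons passed on by P450 oxidoreductase. Families 1 to 3 are best known from the liver, where many are induced through receptors that sense foreign compounds. Some CYP2C and CYP2J forms turn arachidonic acid into epoxides that act on vessels and ion channels, CYP4 forms hydroxylate the far end of fatty acids and leukotrienes, and epoxide hydrolases open the epoxides. In the rat adrenal cortex the best known member is Cyp1b1, which is controlled by adrenocorticotropic hormone and activates polycyclic aromatic hydrocarbons.

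The 250 bases before the annotated start are shown for 3 genes, Cyp2a3 and Cyp4f6 because they carry the strain differences described next, and Cyp1b1 because its probe sets read brightest. They come from RefSeq on the GRCr8 assembly, which represents the BN rat, and the sequences of SHR and WKY were not used here. Capitals mark the TATA box letters TATAAA and the letters GCGTG, the core of the element bound by the aryl hydrocarbon receptor, on either strand (CACGC on the other strand). The windows are chr1:91299334-91299583 on the plus strand for Cyp2a3, chr7:12708379-12708628 on the minus strand for Cyp4f6 and chr6:21094315-21094564 on the plus strand for Cyp1b1.
Cyp2a3: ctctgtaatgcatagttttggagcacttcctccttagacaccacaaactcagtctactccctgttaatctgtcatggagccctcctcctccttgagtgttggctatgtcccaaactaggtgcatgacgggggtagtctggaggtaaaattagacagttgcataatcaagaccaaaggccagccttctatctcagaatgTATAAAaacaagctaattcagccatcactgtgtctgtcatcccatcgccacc
Cyp4f6: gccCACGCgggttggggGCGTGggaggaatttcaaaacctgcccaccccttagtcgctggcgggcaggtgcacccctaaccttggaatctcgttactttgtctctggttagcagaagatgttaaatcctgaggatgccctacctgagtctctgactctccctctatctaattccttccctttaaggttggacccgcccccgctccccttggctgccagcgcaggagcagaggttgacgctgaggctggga
Cyp1b1: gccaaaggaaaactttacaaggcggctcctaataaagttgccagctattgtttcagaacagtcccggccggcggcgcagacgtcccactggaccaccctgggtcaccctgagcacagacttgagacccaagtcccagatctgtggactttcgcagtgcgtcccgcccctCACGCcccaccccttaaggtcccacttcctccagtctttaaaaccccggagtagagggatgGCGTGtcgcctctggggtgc
The Cyp2a3 window held 1 TATAAA, which began 52 bases before the annotated start, and 0 GCGTG. The letters ATG follow this window directly in the table. The Cyp4f6 window held 2 GCGTG, beginning 247 and 233 bases before the start, and the Cyp1b1 window held 2, beginning 81 and 20 bases before it, and neither held TATAAA. Over all 33469 windows of this length in the table, 12.9% held TATAAA and 25.9% held GCGTG. Windows were found for 36 of the 44 genes, of which 12 held TATAAA and 6 held GCGTG. These are matches of letters only.

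Array medians lay close together in the deposited values, from 801.2 to 903.3. By the hybridization times in the instrument's settings files, the arrays were split into 2 hybridization runs at a gap of over 60 minutes. All 3 WKY arrays shared the first run with SHR replicate 1, and SHR replicates 2 and 3 made up the second. Of 9 genes marking the adrenal cortex that the array names singly, all 9 were bright enough to test, and of 12 marking the medulla 10 were. Their summed intensities ran from 473348 to 655335 in SHR and from 500234 to 700558 in WKY for the cortex, and from 43767 to 54634 and from 58064 to 66447 for the medulla.

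SHR adrenals carried more signal for 2 of these enzymes than WKY adrenals. Cyp2a3, a P450 that activates nitrosamines and is known mainly from the airways, rose 3.67-fold, and Cyp4f6, of the subfamily that hydroxylates leukotrienes and long fatty acids, rose 2.49-fold. Cyp1b1 had the brightest probe sets of the group, and its strain difference did not pass the test. The ethanol-metabolizing P450 Cyp2e1 lay lower in every SHR array than in any WKY array in both of its tested probe sets, and it did not pass either. In RNA from a whole gland, fewer cells of a type and less RNA per cell cannot be told apart.

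Strains were compared on a log2 scale after a pseudocount of 181.5 was added to each intensity, over the 5244 probe sets whose mean lay above the 40th percentile, and p-values were adjusted over all of them. Folds and log2 differences are on this scale, which understates the change of dim probe sets. Of the 81 members 40 passed this filter, and they stood for 28 of the 44 genes. Of these 40, 2 were called at a limma adjusted p under 0.05 (5%), against 1.95% of all probe sets tested. Both were higher in SHR (1.07% of all tested) and 0 were lower (0.877%). At an unadjusted p under 0.05 there were 11 (27.5%, against 13.9% of all tested), 5 higher (6.77% of all tested) and 6 lower (7.11%). Cyp1b1, Cyp2a3 and Cyp2e1 each gave 2 of these 11 probe sets, so the 11 are not separate genes. The strains did not overlap in 6 of the 40 (15.0%, against 20.7% of all tested), with SHR above in 4 (10.2%) and below in 2 (10.5%). The median log2 difference of the 40 was 0.11, against -0.007 over all tested probe sets, and 22 of the 40 were above 0. They were also measured with more spread than most, with a median standard error of 0.27 against 0.22.

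**Figure D1:**
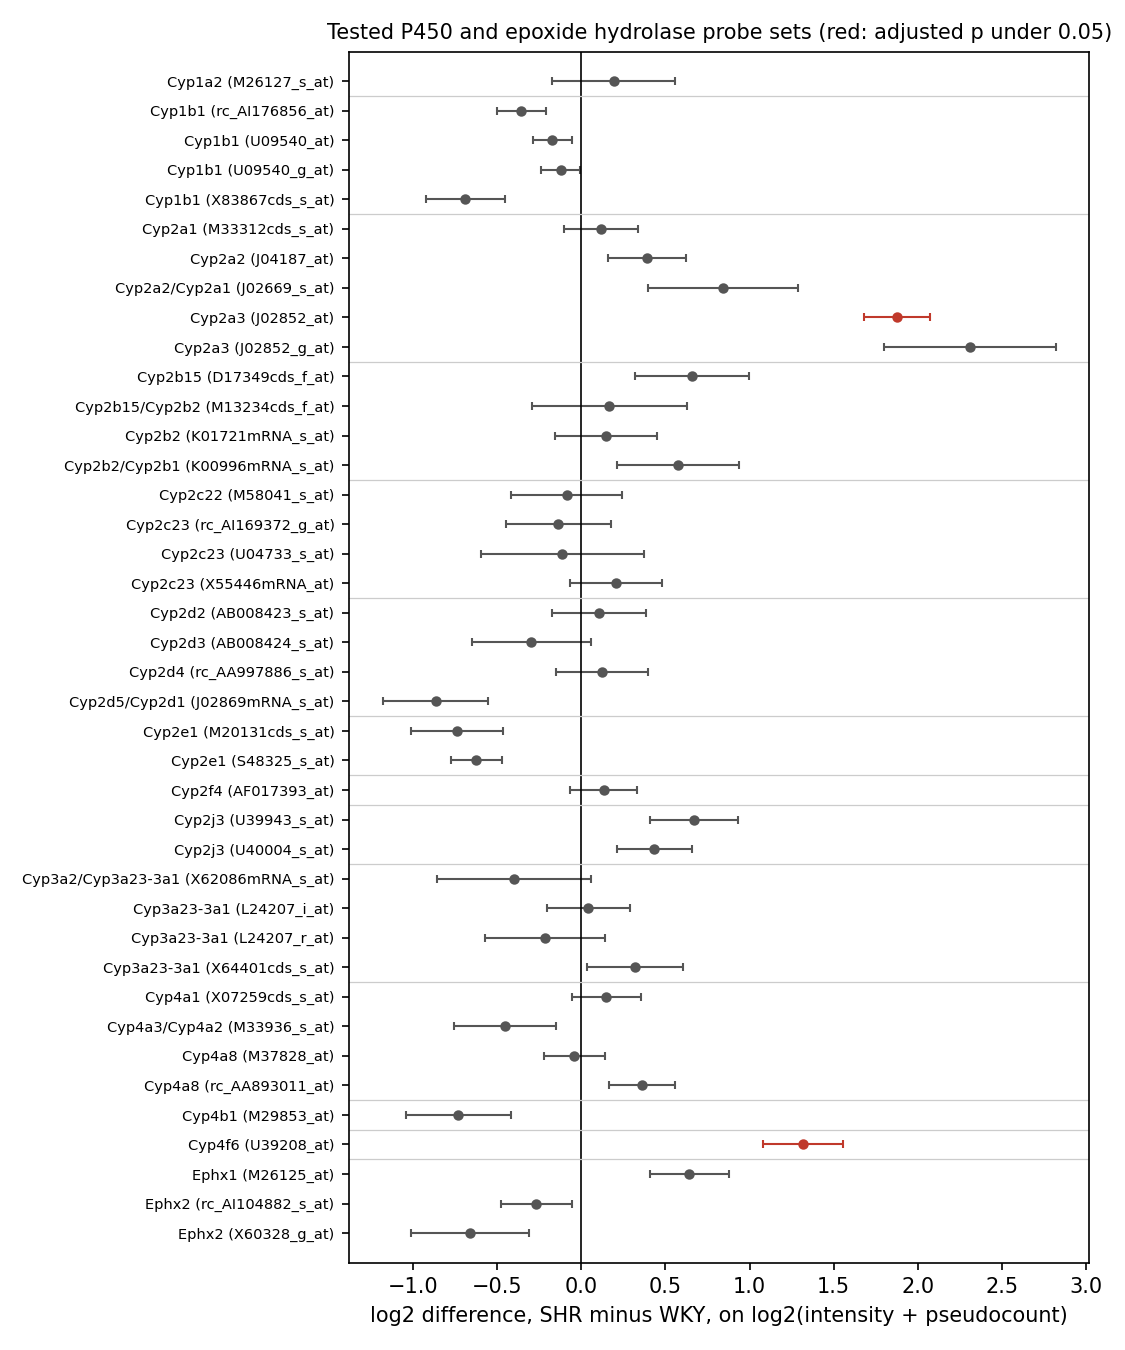
Log2 difference between strains (x axis, SHR minus WKY, on log2 of intensity plus pseudocount) for the 40 tested probe sets (y axis, ordered by subfamily), with bars for the standard error. The 2 red points, Cyp2a3 at 1.88 and Cyp4f6 at 1.32, passed at an adjusted p under 0.05, and the second Cyp2a3 probe set at 2.31 has a wider bar.

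Cyp2a3 was measured by 2 probe sets made from the same transcript record. In the first (J02852_at) the SHR arrays read 4286, 3743 and 4001 and the WKY arrays 783.4, 890.2 and 1253. Every SHR array was above every WKY array, and the lowest SHR value stood well clear of the highest WKY value. The means were 4010 ± 272 in SHR and 976 ± 246 in WKY (SD, n = 3 each), a log2 difference of 1.88 ± 0.19 (SE; limma adjusted p = 0.00350). The second (J02852_g_at) read 4864, 5065 and 5147 in SHR and 947.5, 2128 and 262.9 in WKY. Its SHR arrays lay close together and again above all WKY arrays, while its WKY arrays differed several-fold among themselves. That spread left its log2 difference at 2.31 ± 0.51, which did not pass (adjusted p = 0.0744).

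The call for the first Cyp2a3 probe set held in all 6 fits that left out 1 array, with log2 differences from 1.76 to 2.04 and adjusted p from 0.00468 to 0.0262. It was lost with the hybridization run as a block, where the difference was 1.97 (adjusted p = 0.0572), and in the first run alone, at the same 1.97 (adjusted p = 0.191). Both of those fits rest on SHR replicate 1 against the 3 WKY arrays. The second probe set passed in 1 of the 6 fits without an array, that without WKY replicate 2, at 2.88 (adjusted p = 0.0204).

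**Figure D2:**
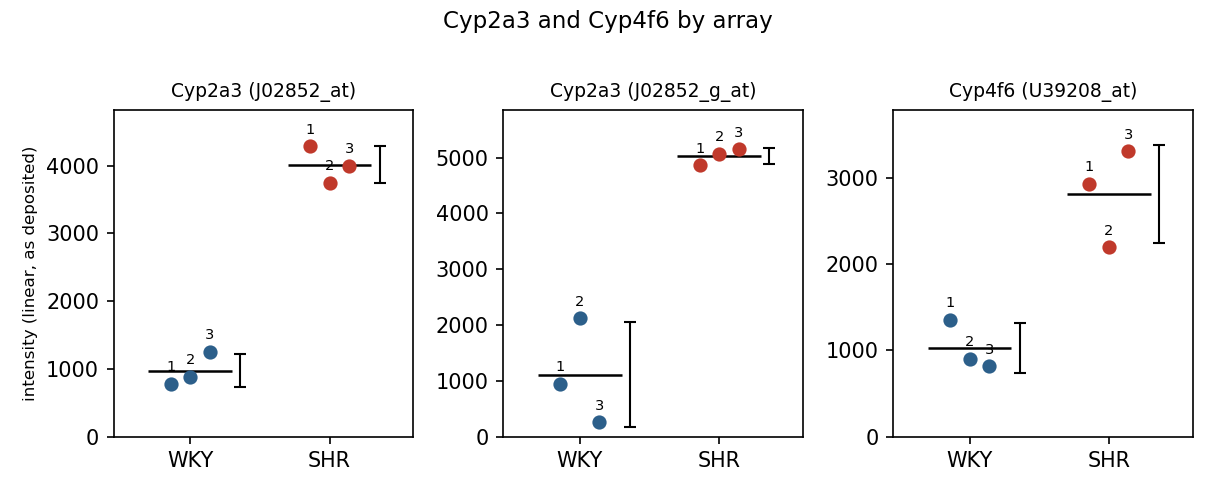
Deposited intensity (y axis, linear, from 0) of each array for both Cyp2a3 probe sets and for Cyp4f6, by strain (x axis), with the replicate number beside each point. Horizontal lines are means and bars beside them the SD of 3 arrays, and in all 3 panels the SHR arrays lie above the WKY arrays, with WKY replicate 2 at 2128 the highest WKY point of the second panel.

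Cyp2a3 lies in a dense cluster of P450 genes on chromosome 1, between the olfactory P450 Cyp2g1 and the steroid 7-alpha-hydroxylase Cyp2a1, and none of these neighbours was called. The array names 10 genes of the cluster, and 7 of them had a tested probe set. Cyp2a1 read 7687, 6525 and 6036 in SHR and 4740, 8450 and 5854 in WKY, so that the strains overlapped (0.12 ± 0.22; limma adjusted p = 0.856). Cyp2a2, its steroid 15-alpha-hydroxylating relative, was at 0.39 ± 0.23 (adjusted p = 0.493), and a probe set naming both at 0.85 ± 0.45 (0.443). Cyp2f4, a lung form on the far side of Cyp2a2, was at 0.13 ± 0.20 (0.820).

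On the other side lie the Cyp2b genes, which include the phenobarbital-inducible Cyp2b1 and Cyp2b2. Of 11 Cyp2b probe sets 4 were tested, all above 0, from 0.15 for Cyp2b2 to 0.66 for Cyp2b15, with adjusted p from 0.429 to 0.911. Cyp2g1 was too dim to test, with means of 154 and 223 over the 6 arrays. WKY replicate 1 was the lowest of the 6 arrays in 5 of the 9 tested Cyp2a and Cyp2b probe sets (55.6%), against 21.7% of all tested probe sets. The joint Cyp2a1 and Cyp2a2 probe set, for instance, read 219.9 there and from 690.7 to 1398 elsewhere. These genes are close copies of each other, so one transcript may add to the signal of several of their probe sets, and how far it did was not tested.

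**Figure D3:**
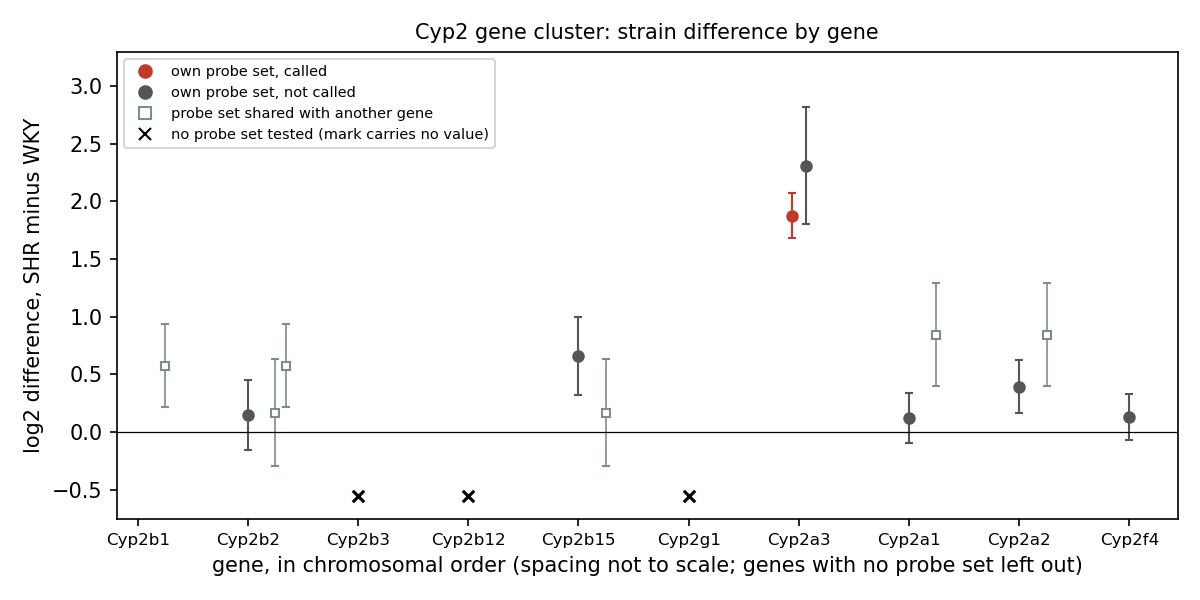
Log2 difference between strains with its standard error (y axis) for the genes of the chromosome 1 cluster that the array names, in chromosomal order (x axis, not to scale). Filled circles are probe sets of 1 gene, open squares those shared with another gene, and only the first Cyp2a3 probe set, at 1.88, is marked as called.

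Because Cyp2a3 is known from the lung and nasal lining, and its relatives from the liver, markers of those tissues are set beside it. Of 7 lung and nasal epithelium markers on the array 2 were tested and 0 passed limma's test, also at an unadjusted p under 0.05. Their summed intensity ran from 5198 to 6149 in SHR and from 4538 to 6106 in WKY. The brightest of their probe sets, for the surfactant gene Sftpb, read from 2455 to 3747 in SHR and from 2324 to 3512 in WKY (0.10 ± 0.21; adjusted p = 0.873), while a second one for Sftpb was too dim to test. The Clara cell gene Scgb1a1 stayed between 94.4 and 201 on all 6 arrays and another surfactant gene, Sftpc, between 94.2 and 179.8, both close to or under the pseudocount. The best read probe set of albumin was between 492.6 and 741.1 and overlapped between strains (0.07; limma adjusted p = 0.937).

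Cyp4f6 belongs to the CYP4F subfamily, which inactivates leukotriene B4 and related lipid signals. Its probe set read 2926, 2195 and 3304 in SHR and 1354, 904.5 and 816.5 in WKY. All SHR arrays were above all WKY arrays, with SHR replicate 2 the nearest to WKY. The means were 2808 ± 564 and 1025 ± 289 (SD, n = 3 each), a log2 difference of 1.32 ± 0.24 (SE; limma adjusted p = 0.0350).

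This call was less stable than that for Cyp2a3 in these fits. Of the 6 fits without 1 array it passed in 1, that without WKY replicate 1 (adjusted p = 0.0382), and stood at 1.19 to 1.47 with adjusted p from 0.0813 to 0.121 without any of the others. With the hybridization run as a block it was at 1.39 (adjusted p = 0.248), and with no filter on dim probe sets at 1.32 (adjusted p = 0.0619).

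The other 4 CYP4F probe sets, for Cyp4f1, Cyp4f4, Cyp4f5 and Cyp4f17, were too dim to test, with means over the 6 arrays from 175.5 to 442.8. Cyp4f1 is the neighbour of Cyp4f6 on chromosome 7. It read 86.0, 92.6 and 269.3 in SHR and 265.4, 456.9 and 549.2 in WKY, and the strains overlapped by a small margin.

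Cyp1b1 gave the 4 brightest readings of the group, although brightness also depends on the probes and does not rank transcripts. All 4 of its probe sets had a lower mean in SHR, and none passed. In 2 of them, rc_AI176856_at and X83867cds_s_at, limma's unadjusted p was under 0.05. The probe set U09540_at read 54474, 56022 and 63268 in SHR and 58193, 65036 and 72986 in WKY, a log2 difference of -0.17 ± 0.12 (SE; limma adjusted p = 0.563). The companion U09540_g_at read 53645, 48962 and 55656 in SHR and 53672, 53055 and 66126 in WKY, and the strains overlapped (-0.12 ± 0.12; 0.703). Probe set rc_AI176856_at read 43112, 54218 and 50103 in SHR and 62167, 53235 and 74363 in WKY, overlapping through WKY replicate 2 (-0.36 ± 0.15; adjusted p = 0.326). The largest difference was in X83867cds_s_at, which read 16993, 23683 and 30457 in SHR and 35959, 30201 and 47530 in WKY. There only SHR replicate 3 and WKY replicate 2 overlapped, and the difference was -0.69 ± 0.24 (adjusted p = 0.236). Its size ranged from -0.89 to -0.47 over the fits without 1 array and was -1.12 with the run as a block (adjusted p = 0.232), but -0.29 with the fluidics module as a block (0.626).

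Cyp2e1, which oxidizes ethanol and small solvents, was measured by 3 probe sets. In S48325_s_at the SHR arrays read 2042, 1823 and 1749 and the WKY arrays 3120, 2787 and 3022. The strains were well apart, with a log2 difference of -0.62 ± 0.15 (SE; limma adjusted p = 0.102). M20131cds_s_at read 2165, 2846 and 1299 in SHR and 4175, 3358 and 2973 in WKY, again without overlap but with more spread (-0.74 ± 0.27; adjusted p = 0.275). The third, AF056333_s_at, was too dim to test and ran from 89.5 to 365.6 in SHR and from 164.5 to 1533 in WKY.

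The liver is the main known site of Cyp2e1, and fat also makes it. Of 16 liver markers on the array 10 were tested and 0 passed limma's test (2 at an unadjusted p under 0.05). Their summed intensity was lower in SHR, from 16107 to 19386, than in WKY, from 20850 to 22159, and 0 of the 16 genes had a reading of 0 on any array. The genes did not share a direction: 6 of the 10 were above 0, with a median log2 difference of 0.08. Serpina1, a protease inhibitor, was at -1.36 ± 0.41 (adjusted p = 0.167). The other Serpina1 probe sets were too dim to test and overlapped between strains. The retinol carrier Rbp4 was at -0.84 ± 0.36 (0.353), and at -1.12 in another tested probe set (0.322). The thyroid hormone carrier Ttr read higher in every SHR array than in any WKY array by its tested probe set (0.38 ± 0.19; 0.414). Its second probe set, too dim to test, lay the other way, from 44.8 to 50.2 in SHR and from 59.2 to 258.8 in WKY. Of 8 fat cell markers 7 were tested and 1 passed, adipsin (Cfd), which fell by 2.00 ± 0.35 on the log2 scale (0.0324). Their sum ran from 48211 to 67323 in SHR and from 65149 to 107109 in WKY, and 0 of the 8 genes had a reading of 0. Cd36, a fatty acid uptake receptor, was lower in every SHR array (-1.44 ± 0.35; 0.0969). Fabp4, the fatty acid binding protein of fat cells, was at -1.52 ± 0.52 (0.235). Of the 7 fat cell markers tested, 3 had an unadjusted limma p under 0.05 (against 13.9% of all tested probe sets), and the median log2 difference was -0.41. The 2 above 0 were Lep, at 0.004 by its brightest probe set (adjusted p = 0.992), and Pparg, at 0.04 (0.988). Another tested Lep probe set was at -0.66 (limma adjusted p = 0.576). Ucp1 was at -0.33 (0.877), with SHR replicate 3 its highest array. The part of either tissue in the Cyp2e1 values was not tested.

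**Figure D4:**
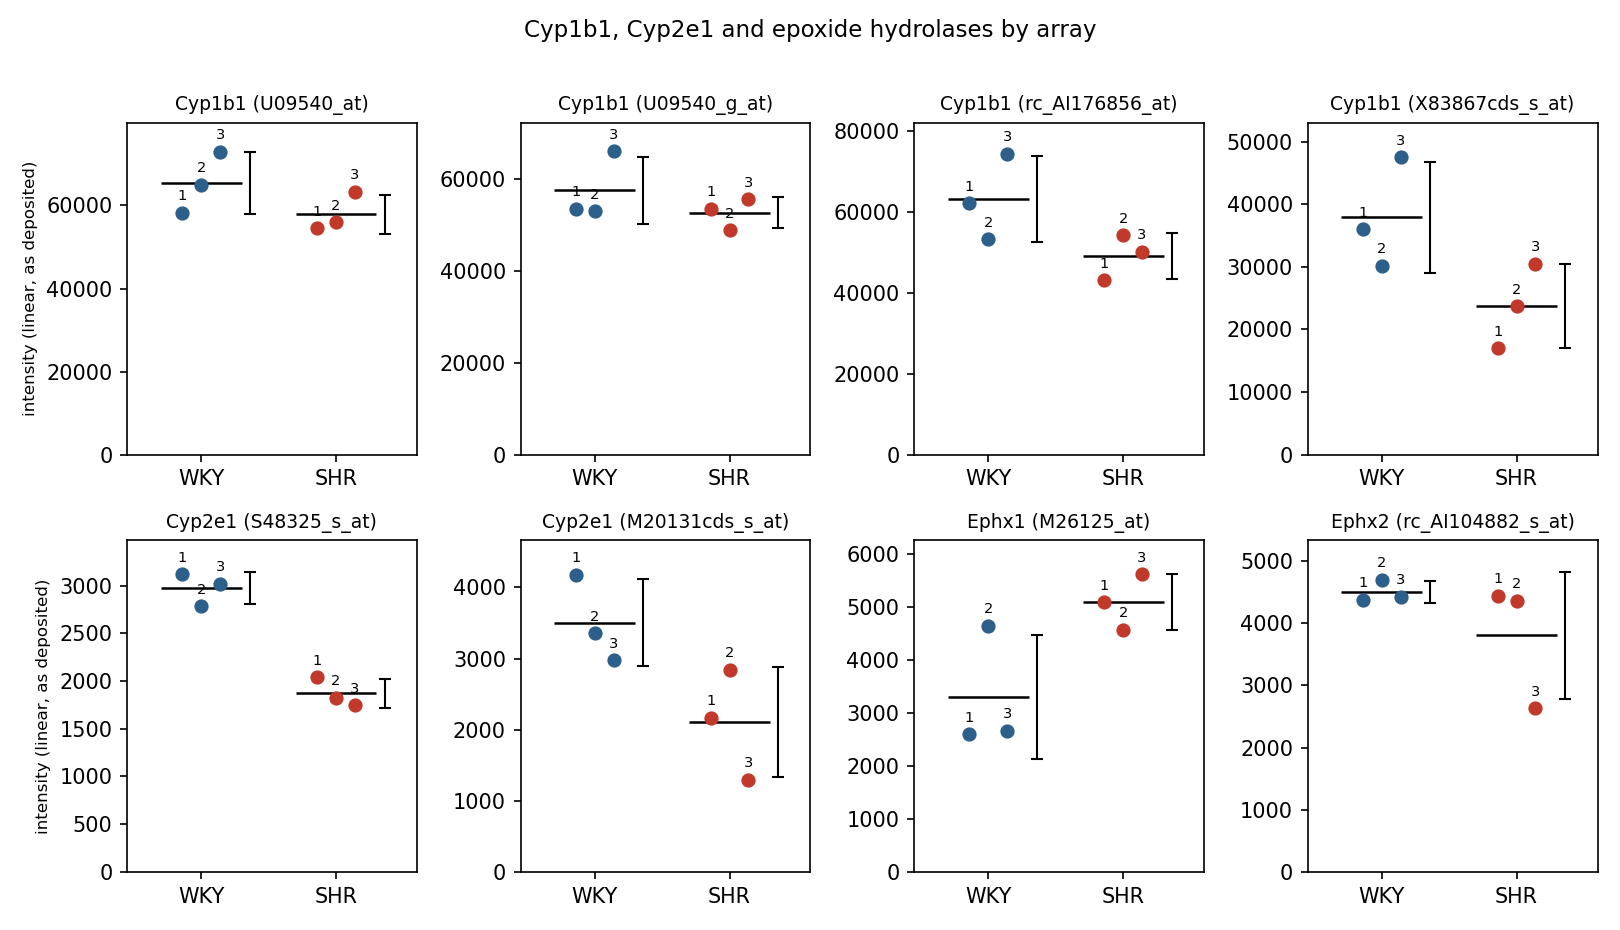
Deposited intensity (y axes, linear, from 0) of each array for 4 Cyp1b1, 2 Cyp2e1, 1 Ephx1 and 1 Ephx2 probe sets, by strain (x axes), with replicate numbers, means as lines and the SD of 3 arrays as bars. Both Cyp2e1 panels show the SHR arrays wholly below the WKY arrays, and the Cyp1b1 panels overlap.

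Enzymes that make and open fatty acid epoxides gave no call. Cyp2c23, an arachidonic acid epoxygenase of the rat kidney, had 3 tested probe sets at -0.14, -0.11 and 0.21 (limma adjusted p from 0.789 to 0.951). One of them, U04733_s_at, read 1514, 637.8 and 319.9 in SHR and 1024, 411.4 and 1047 in WKY. SHR replicate 1 was its highest array, and its difference moved from -0.11 to 0.82 with the run as a block (adjusted p = 0.715).

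Cyp2j3, an epoxygenase first described in the heart, leaned higher in SHR in both tested probe sets. U39943_s_at read 1015, 1459 and 1603 in SHR and 1054, 724.3 and 591.3 in WKY, where only SHR replicate 1 and WKY replicate 1 overlapped (0.67 ± 0.26; limma adjusted p = 0.30). U40004_s_at was at 0.44 ± 0.22 (0.433). With the run as a block the values were 0.33 and 0.06, and the remaining Cyp2j3 probe set stayed under 50 on every array.

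Ephx1, the microsomal epoxide hydrolase that detoxifies foreign epoxides, read 5100, 4580 and 5631 in SHR and 2598, 4655 and 2671 in WKY. WKY replicate 2 reached the SHR range and the other 2 WKY arrays did not, and the difference was 0.64 ± 0.23 (SE; limma adjusted p = 0.262). Without WKY replicate 2 it was 0.90 (adjusted p = 0.0687), and over all fits without 1 array it ran from 0.50 to 0.90.

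Ephx2, the soluble hydrolase that degrades arachidonic acid epoxides, read 4438, 4357 and 2631 in SHR and 4374, 4695 and 4426 in WKY by its best read probe set. Only SHR replicate 3 stood apart, and the difference was -0.27 ± 0.21 (SE; limma adjusted p = 0.630). A second, X60328_g_at, read 320.5, 698.1 and 1128 in SHR and 988.9, 1103 and 1329 in WKY. Here SHR replicate 1 was the lowest array and SHR replicate 3 reached WKY (-0.66 ± 0.35; adjusted p = 0.448). With the run as a block the second moved to -1.39 (adjusted p = 0.253) while the first was at -0.02. The other 2 Ephx2 probe sets were too dim to test and overlapped between strains. X60328_at read 422.4, 169.7 and 284.1 in SHR and 272.5, 275.4 and 241.3 in WKY, and X65083cds_at read 269.4, 271.9 and 258.2 in SHR and 362.1, 375.0 and 195.1 in WKY.

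The Cyp4a enzymes, which make the vasoconstrictor 20-HETE from arachidonic acid in kidney and vessels, were near 0. Their 4 tested probe sets ran from -0.45, for one shared by Cyp4a2 and Cyp4a3, to 0.36, for Cyp4a8, with limma adjusted p from 0.459 to 0.953. That Cyp4a8 probe set (rc_AA893011_at) read 1330, 1758 and 1539 in SHR and 1265, 1255 and 965.8 in WKY, without overlap, while the other for Cyp4a8 was at -0.04. Cyp4b1, a lung and kidney form that acts on fatty acids and arylamines, read 421.7, 280.2 and 718.1 in SHR and 818.8, 713.0 and 1093 in WKY. SHR replicate 3 and WKY replicate 2 overlapped by a few units, and the difference was -0.73 ± 0.31 (SE; adjusted p = 0.353).

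Among the drug-metabolizing Cyp2d enzymes, a probe set shared by Cyp2d1 and Cyp2d5 read 954.1, 426.1 and 426.7 in SHR and 1505, 1163 and 933.1 in WKY. SHR replicate 1 reached the lowest WKY array and the other 2 SHR arrays, from the second run, lay well under it (-0.86 ± 0.31; limma adjusted p = 0.264). With the run as a block the difference shrank to -0.26 (adjusted p = 0.873). Cyp2d4, the form known from brain, was the brightest Cyp2d reading, at 10202, 9418 and 8051 in SHR and 5207, 10695 and 10642 in WKY. WKY replicate 1 alone was low there, and the difference of 0.12 ± 0.27 (0.879) turned to -0.21 without it.

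Of 8 probe sets for Cyp3a, the subfamily that oxidizes many drugs and steroids, 4 were tested, from -0.40 to 0.32 with limma adjusted p from 0.674 to 0.961. Cyp3a9 was too dim for the filter but its strains did not overlap, at 252.3, 402.8 and 172.2 in SHR and 616.3, 528.3 and 948.2 in WKY. Tested without the filter, it was at -0.95 (adjusted p = 0.284). Of the Cyp1a enzymes, the classic targets of the aryl hydrocarbon receptor, 1 of 4 probe sets was tested, for Cyp1a2, at 0.19 ± 0.36 (0.860). The Cyp1a1 probe set read from 88.2 to 195.6 in SHR and from 108.4 to 251.0 in WKY.

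The 41 members under the filter had mean intensities from 14.3 to 523, with a median of 223, and 16 of the 44 genes had no other probe set. They held 13 of the 17 Cyp2c probe sets, among them all of those for Cyp2c11, Cyp2c12 and Cyp2c13, liver forms under the control of growth hormone in the rat. Strains did not overlap in 2 of the 41 (4.88%, against 11.8% of all probe sets under the filter), Cyp3a9 and a Cyp1a2 probe set read from 87.6 to 129.7 in SHR and from 46.6 to 67.7 in WKY, under the pseudocount on every array. No detection call was used here, so a dim reading is a low signal and not proof that a transcript is missing.

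With the run as a block 0 of the 40 tested members were called by limma, against 20 of all 5244 probe sets (0.381%). Of the 40, 6 had an unadjusted p under 0.05 (15.0%, against 9.19% of all). The sign held in 36 of the 40, and 5 moved by over 0.5. The 4 whose sign turned lay within 0.21 of 0 in the fit without the block. Leaving out WKY replicate 1 turned the sign of 10 of the 40, more than leaving out any other array, which turned 2 to 5. None of the 10 was a called probe set, and the largest of them had been at -0.40.

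**Figure D5:**
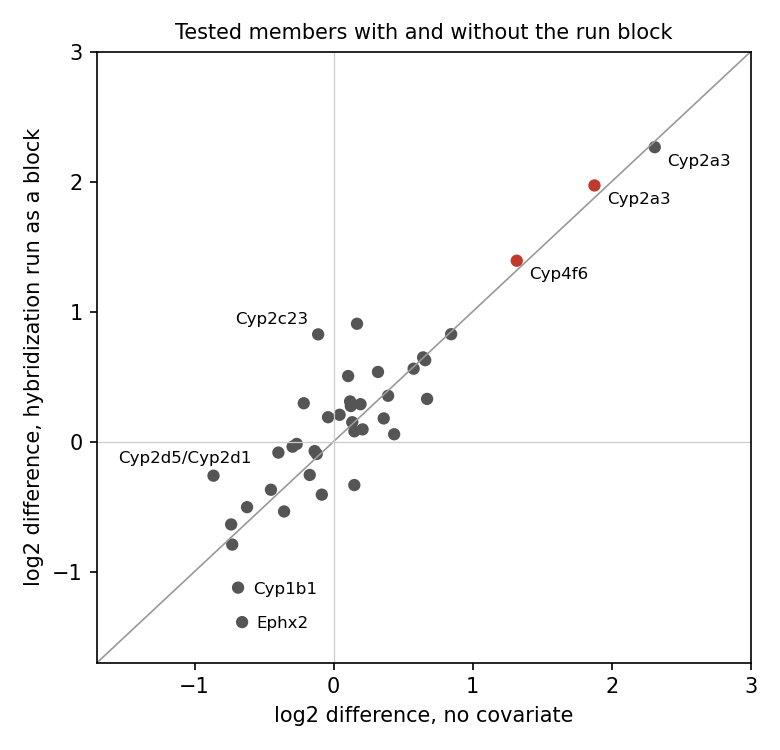
Log2 difference between strains of the 40 tested members without a covariate (x axis) and with the run as a block (y axis), with the line of equality; red points were called without the block. Among the labelled points, Cyp4f6 and both Cyp2a3 probe sets lie near the line, and Ephx2, Cyp2c23, Cyp1b1 and the Cyp2d probe set lie farther from it. Unlabelled points far from it include a joint Cyp2b15 and Cyp2b2 probe set (0.17 to 0.91) and one for Cyp3a23-3a1 (-0.21 to 0.29).

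Genes that serve or surround these enzymes gave 2 calls in 7 lists, each gene standing by its brightest tested probe set. Over all tested probe sets, 1.95% were called by limma and 13.9% had an unadjusted p under 0.05. Of 5 tested redox partners of P450 0 passed limma's test (1 at an unadjusted p under 0.05), with a median log2 difference of 0.18. Por, the P450 oxidoreductase, was at 0.18 ± 0.16 (adjusted p = 0.675), and the cytochrome b5 genes Cyb5a and Cyb5b at 0.40 and 0.41 (0.466 and 0.299). Of 7 genes of haem synthesis and breakdown 0 passed (2 at an unadjusted p under 0.05; median 0.08). The haem oxygenase gene Hmox1 was at 0.71 ± 0.16 (0.0755), the biliverdin reductase gene Blvra at -0.57 ± 0.17 (0.176) and Urod, of haem synthesis, at -0.27 ± 0.13 (0.395).

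Of 13 tested receptors and factors that control P450 genes 0 passed limma's test (1 at an unadjusted p under 0.05; median -0.07). Nfe2l2, which drives antioxidant and detoxification genes, was at -1.05 ± 0.35 (adjusted p = 0.224), Ppard at -0.30 (0.414) and Cebpa at -0.84 (0.426). Ahr was among 4 genes of the list too dim to test. Of 15 other oxidizing and hydrolysing enzymes of foreign compounds 1 fell, the xanthine dehydrogenase gene Xdh, by 1.01 ± 0.16 (0.0254), and 14 did not pass. The flavin monooxygenase Fmo1 was at 0.60 ± 0.19 (0.207), the carboxylesterase Ces1d at -1.40 ± 0.46 (0.217) and Aldh3a2, an aldehyde dehydrogenase for fatty aldehydes, at 0.62 ± 0.24 (0.310).

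Of 7 tested conjugating enzymes other than glutathione transferases 0 passed limma's test (1 at an unadjusted p under 0.05; median 0.12). The sulfotransferase Sult1a1 was at -0.61 ± 0.18 (adjusted p = 0.160), the glucuronosyltransferase Ugt2b1 at 0.52 (0.362) and the acetyltransferase Nat2 at 0.38 (0.703). Of 10 tested genes that release arachidonic acid or make other eicosanoids 0 passed, and the median was 0.30. At an unadjusted p under 0.05 there were 5 of the 10, against 13.9% of all tested probe sets. Ptgr1, which inactivates prostaglandins and leukotriene B4, was at 1.13 ± 0.22 (0.0514), the prostacyclin synthase gene Ptgis at -0.95 ± 0.23 (0.0945) and the cyclooxygenase gene Ptgs1 at 0.92 ± 0.27 (0.160). Of 12 lipid genes responsive to peroxisome proliferators 1 fell, the uncoupling protein gene Ucp2, by 1.14 ± 0.11 (0.00269), and 11 did not pass (median 0.04). Cpt2, Acsl1 and Cpt1b, which act in fatty acid transport and activation, were at 0.52, -0.46 and -0.30 (0.221, 0.472 and 0.574).

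Among the other marker lists the kidney gave 1 call in 8 tested genes, Spp1, which encodes osteopontin and rose by 1.94 ± 0.18 on the log2 scale (limma adjusted p = 0.00195). Summed kidney markers ran from 17783 to 20543 in SHR and from 15079 to 22807 in WKY. Of 7 leukocyte and 3 endothelium genes 0 passed, also at an unadjusted p under 0.05, with sums from 11676 to 16453 and from 5936 to 7460 in SHR and from 10522 to 22227 and from 5146 to 7468 in WKY. Of 9 cortex genes 0 passed (2 at an unadjusted p under 0.05). Only 4 of the 9 were above 0, and the list median was -0.07. The genes of smallest p, all above 0, were Inha at 0.59, Nr0b1 at 0.85 and Nr5a1 at 0.34 (limma adjusted p = 0.0732, 0.122 and 0.367). Star was at -0.20 and Cyp21a1 at -0.56 (0.707 and 0.633). Of 10 medulla genes 1 passed, Dbh, which makes noradrenaline and fell by 1.29 ± 0.15 (0.00548). At an unadjusted p under 0.05 there were 6 of the 10, against 13.9% of all tested probe sets, and the list median was -0.49. Only 2 of the 10 were above 0, the monoamine transporter Slc18a2 at 0.91 ± 0.38 (0.329) and Ddc at 0.14 (0.712). Pnmt, Slc18a1, Npy and Scg2 were at -0.57, -0.82, -0.58 and -0.53 (limma adjusted p = 0.0764, 0.191, 0.329 and 0.322). Th, which makes the precursor of dopamine, was at -0.02 ± 0.18 (0.973). The part of these cell types in the P450 values was not tested.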

How the data were processed

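Sample titles gave strain and replicate number. The values the authors deposited are linear intensities, 1 for each probe set on each array. They had already been scaled, as shown by a trimmed mean (2% off each end) of 2504 on all 6 arrays. The sources used here do not give the expression algorithm or the scaling step. Other values came from the settings file deposited for each array (hybridization time and fluidics module). Hybridization runs were not recorded as such. They were set from the time of day, with a new run wherever the gap between arrays exceeded 60 minutes. Probe sets were named by the array's annotation table, and symbols were brought up to date through RefSeq on GRCr8.

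After 59 control probe sets were set aside, log2(intensity + 181.5) was fitted with limma 3.58.1 in R 4.3.3 (lmFit, then eBayes with an intensity trend), SHR minus WKY, over all 6 arrays with no covariate. The pseudocount is the 20th percentile of values above 0. Tests were two-sided, and p-values were adjusted by the Benjamini-Hochberg method over 5244 probe sets, with a threshold of 0.05. The steps were tested on simulated data. Given in full were called members, those at an unadjusted p under 0.05, all probe sets of Cyp2a3, Cyp4f6, Ephx1 and Ephx2, other probe sets of called genes and the 6 brightest. Of each of the 7 related lists, called genes and up to 3 others of smallest p were named, and of the marker lists called genes. Other markers named and other members given by array were chosen after their values were seen. The members, lists and tests were chosen with earlier results of these data known. Alternatives were other scalings, pseudocounts, filters and eBayes settings, blocks, and each array left out.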

Additional observations from a re-analysis of the deposited data

How the results depend on the processing

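Between 36 and 59 of all tested probe sets, against 102, and 1 to 2 members, against 2, were called when 1 array was left out. All tested probe sets gave 60 calls without an intensity trend, 53 with the replicate block, 20 with the run as a block, 46 with the fluidics module as a block, which rests on the 4 arrays of shared modules, and 1 in the first run alone. Members gave 1 call without a filter, without a trend, with the replicate block and with the module, and 0 with the run as a block or in the first run alone (6 and 5 at an unadjusted p under 0.05, or 15% and 12.2%, against 9.19% and 8.45% of all). With a pseudocount 4 times as large members gave 3 calls, the added one being the second Cyp2a3 probe set at 1.78 (limma adjusted p = 0.0375). Other scalings, a pseudocount of 1, a filter at the 60th percentile and robust eBayes kept both calls. Same-numbered deviations correlated at only 0.0009, 0.01 and 0.07 between strains, so no strong shared effect of replicate number was seen. With 3 arrays per strain this cannot show whether the samples were paired by design. Cyp4f6 lost its call under the replicate block (limma adjusted p = 0.0713). Of 302 values of 17 named probe sets under these settings, 299 kept their direction. The exceptions were Cyp2a1, at -0.013 with the module as a block and -0.066 without WKY replicate 1, and Cyp2d4, at -0.21 without WKY replicate 1. Over the 6 fits without 1 array they ran from -0.066 to 0.34 and from -0.21 to 0.29. Part of the count of 299 was fixed in advance. Other filters, eBayes settings and the replicate block cannot change a log2 difference, and the first run alone repeats that of the run block. The 3 arrays per strain and dim readings limit what could be detected.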

Other observations

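P450 genes outside families 1 to 4, the steroid-making enzymes and Cyp51 among them, had 21 probe sets, of which 14 were tested. Of the 14, 0 were called by limma and 2 had an unadjusted p under 0.05, with a lowest adjusted p of 0.173. This lowest value belonged to Cyp27a1, a mitochondrial sterol 27-hydroxylase, whose probe set Y07534cds_s_at read 1073, 748.1 and 907.6 in SHR and 2752, 4249 and 1220 in WKY, without overlap (-1.28 ± 0.39). Its second probe set, M38566mRNA_s_at, overlapped between strains, at -0.25 ± 0.23 (adjusted p = 0.688).

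Alas1, the rate-limiting enzyme of the haem that P450 enzymes carry, was chosen after its values were seen. The SHR arrays read 35555, 36913 and 34918 and the WKY arrays 2305, 18223 and 38493, so the WKY samples spread widely while the SHR samples lay close together. The log2 difference was 1.57 ± 0.84 (limma adjusted p = 0.448).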
